A study of Homo sapiens with 21 samples.

Results

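The aryl hydrocarbon receptor genes described here are AHR, ARNT, AHRR, TIPARP, CYP1A1, CYP1B1 and NQO1, 7 of the 58174 gene identifiers in the deposited tables. They were chosen by name, as the receptor, its partner, its repressors and its classical targets. All 7 were found, and all 7 passed the filter on low counts, with at least 21 reads in every library. RNA came from OCI-AML5, a human acute myeloid leukemia cell line, after UM171, a small molecule used to expand hematopoietic stem cells in culture, or after its vehicle DMSO. Control cells received DMSO, labelled 72 h, or 500 nM UM171 for 6, 24, 48 or 72 h. OCI-AML5 cells expressing an sgRNA against EPCR, the protein C receptor encoded by PROCR, received DMSO or 500 nM UM171, both labelled 24 h, and are called sgEPCR. Dose and times are those of the labels, which also name DMEM with serum as the medium, whereas the study's text gives a lower dose in its legends and another medium with GM-CSF. Each of the 7 groups had 3 libraries, 21 in all, and the labels name no guide for the control cells. The sgEPCR libraries are labelled as a clone, as EPCR null in one field and as EPCR knockdown in another, and the series describes RNA from sorted subsets that it does not name. The study's text speaks of 3 independent sgEPCR clones, but the labels do not say which library is which clone. For the control groups nothing says that the 3 libraries came from separate cultures, so their p-values measure the spread between these libraries, which may be technical. Because the vehicle time differs (72 h in control and 24 h in sgEPCR cells), time and genotype cannot be told apart between the DMSO groups. In control cells the vehicle matches the 72 h UM171 group alone, so UM171 and time in culture cannot be told apart at 6, 24 and 48 h.

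Libraries held 24.3 M to 51.5 M estimated reads, with a median of 33.9 M. Mitochondrially encoded genes took 7.73 to 13.5% of reads in 19 libraries. Their share was 35.9% in replicate 1 of sgEPCR cells with DMSO and 32.2% in replicate 2 of those with UM171. Members' results in sgEPCR cells are given with and without those 2 libraries. Leaving them out leaves 2 libraries in each sgEPCR group. PROCR, the targeted gene, averaged 3.68 TPM in DMSO control cells and 3.59 TPM in DMSO sgEPCR cells, so its mRNA does not tell the genotypes apart without UM171. Under 24 h of UM171 it averaged 48.5 TPM in control cells and 7.19 TPM in sgEPCR cells (log2 fold change -2.63 ± 0.12 SE, edgeR adjusted p = 1.9e-07, and -2.59 without those 2 libraries). Of 8 myeloid markers all 8 reached 1 TPM in every group but sgEPCR UM171, where 7 did and MPO averaged 0.737 TPM, and their summed level was 516 to 911 TPM over all libraries. They did not stay level: at 72 h 2 of the 8 were called higher and 1 lower, ITGAM averaging 13.2 TPM in DMSO and 98.3 TPM at 72 h and SPI1 417 and 216 TPM. Of 4 T and NK cell markers, NKG7 averaged 15.7 TPM and CD3D 0.447 TPM in DMSO, and 24.6 and 16.1 TPM at 72 h, while CD8A stayed under 1 TPM and CD3E did not exceed 0.11 TPM. Their sum was 16 to 17.1 TPM in DMSO, 17.1 to 21.8 TPM at 24 h, 39.7 to 43 TPM at 72 h, 2.75 to 7.89 TPM in sgEPCR DMSO and 13.3 to 30.2 TPM in sgEPCR UM171. Among B cell markers, CD79A reached 40.4 TPM and MS4A1 was at 0 TPM in every library. The part of these markers in the results was not tested.

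The aryl hydrocarbon receptor (AHR) is a ligand-activated transcription factor held in the cytoplasm by HSP90 and its co-chaperones. With ligand it enters the nucleus, pairs with ARNT and binds response elements with the core GCGTG. Among its classical targets are the cytochromes P450 CYP1A1 and CYP1B1, which oxidize aromatic compounds, the quinone reductase NQO1, and the feedback repressors AHRR and TIPARP. AHRR competes with AHR for ARNT, whereas TIPARP is an ADP-ribosyltransferase that modifies the receptor. NQO1 is also a target of NRF2, the regulator of the oxidative stress response. In blood, AHR is known for restraining hematopoietic stem cell expansion, and AHR antagonists are used to grow such cells in culture.

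The promoter windows of 3 feedback and target genes are shown because TIPARP and CYP1A1 moved together at 24 h whereas AHRR did not. Windows of 300 bases, 250 before to 50 after the annotated start, came from RefSeq on GRCh38.p14, and 6 of the 7 members had at least 1 window. GCGTG was searched on both strands with overlaps counted, and 36.5% of all 35116 windows held at least 1 match. CYP1A1 had 1 match in its window, 1 of the 3 TIPARP windows had 2, and the 2 AHRR windows had 1 and 2. AHR and NQO1 had 1 match each, and CYP1B1 had no window among the sequences used here. Capitals mark the GCGTG match, printed 5′ to 3′ on the strand that carries it.
CYP1A1, chr15:74725568-74725597, minus strand: ccagggaaggagGCGTGgccacacgtacaa
TIPARP, chr3:156674370-156674399, minus strand: ctcccgcgaggggGCGTGtcctttctcgcg
TIPARP, chr3:156674436-156674465, minus strand: gccccctgcgcgcGCGTGcgcgttcgttcg
AHRR, chr5:321672-321701, plus strand: ggcgggcggctcGCGTGccggggtggggca
The AHRR stretch also matched the longer form TNGCGTG, which 5.51% of all windows held on either strand. The NQO1 window held the longer form too. Matches in the other AHRR window and in the AHR and NQO1 windows are not printed. ARNT had no GCGTG in its window. These matches describe letters in a short window and were not tested against the expression values.

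In DMSO control cells 6 of the members were well expressed and CYP1A1 was near the lower end of detection. ARNT, the dimerization partner, was the most abundant at 43.5 ± 4.55 TPM (SD, n = 3). AHRR followed at 37.8 ± 1.91 TPM and CYP1B1 at 37.5 ± 1.85 TPM, and the libraries of these 2 genes overlapped. NQO1 stood at 29.5 ± 2.83 TPM, TIPARP at 17.2 ± 1.16 TPM and AHR itself at 14.8 ± 1.14 TPM. CYP1A1 was lowest at 0.510 ± 0.111 TPM, with 21 to 30 reads per library. TPM is scaled within each library and by gene length, so that genes can be compared. After 24 h of UM171 AHR was the most abundant member, at 73.7 ± 6.09 TPM, and its libraries overlapped those of CYP1B1.

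**Figure D1:**
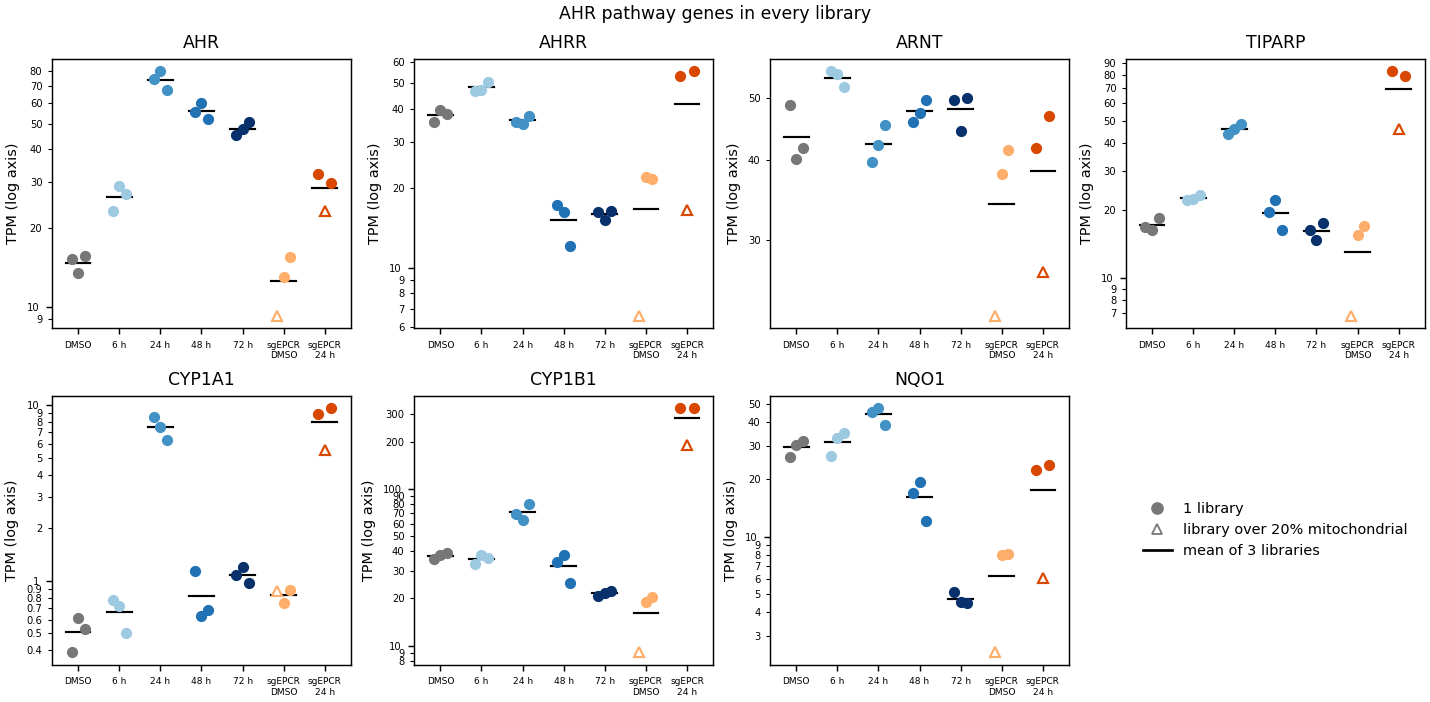
TPM (log axis) of each member in all 21 libraries by group, where points are libraries, lines are means of 3, and open triangles are the 2 libraries with over 20% mitochondrial reads. AHR, TIPARP, CYP1A1, CYP1B1 and NQO1 in control cells were highest at 24 h. CYP1B1 reached its highest level, 281 TPM on average, in sgEPCR cells under UM171.

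Changes were tested on the estimated counts with edgeR, and a gene was called where its adjusted p was under 0.0001 and its change exceeded 2-fold, the limits of the study's heat maps. Only called genes are said to have risen or fallen. After 6 h none of the 7 members was called by edgeR, DESeq2 or limma, although 5 had an unadjusted p under 0.05 in edgeR and 4 in each of the other tools. At an edgeR adjusted p under 0.05 and no fold limit 4 members passed, as did 10301 of the 16575 genes tested. By the stricter call 6.78% of all genes were called higher and 0.247% lower. After 24 h 3 members rose, and 9.03% of all genes were called higher and 4.70% lower. After 48 h 1 member rose and 1 fell, against 11.7% and 4.67% of all genes. After 72 h 1 member rose and 2 fell, against 15% and 5.80%. The median change of the members was 0.83 (log2) at 24 h and -0.17 at 72 h, against -0.01 and 0.02 for all genes tested.

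AHR rose at every time from 24 h. Its TPM was 15.2, 13.5 and 15.6 in DMSO, 23.3, 28.9 and 27.0 at 6 h, and 74.1, 79.5 and 67.4 at 24 h. At 48 h it was 55.6, 60.2 and 52.4 TPM, and at 72 h 45.3, 47.8 and 50.8 TPM. No library of a UM171 group overlapped DMSO, and the level declined from 24 h to 72 h without overlap. The fitted log2 fold changes were 2.31 ± 0.07 (SE) at 24 h, 1.93 ± 0.07 at 48 h and 1.61 ± 0.07 at 72 h, with edgeR adjusted p of 1.9e-14, 1e-13 and 6.5e-13. At 6 h the change was 0.52 ± 0.07 (edgeR adjusted p = 4.2e-06), under the 2-fold limit. These are bulk samples, in which more cells expressing a gene and more RNA per cell cannot be told apart. At 6 h the size depended on the measure: the change of AHR was 0.52 with TMM scaling, 0.71 with total count scaling and 0.80 on log2(TPM + 1), where the medians of all genes were 0.02, 0.20 and 0.13. Its estimated transcript length, which enters TPM, was 4279, 5191 and 4967 bases in DMSO and 4533, 4146 and 4373 bases at 6 h.

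ARNT, without which AHR does not bind its elements, was not called in any comparison. Its TPM was 48.6, 40.1 and 41.7 in DMSO, and its group means in control cells ran from 42.4 TPM at 24 h to 53.7 TPM at 6 h. The 6 h libraries, at 54.9, 54.3 and 51.9 TPM, were above DMSO, whereas the 24 h libraries overlapped it. The fitted changes against DMSO were 0.13 ± 0.06, -0.18 ± 0.06, -0.06 ± 0.06 and 0.04 ± 0.06 at 6, 24, 48 and 72 h. All 4 intervals lay well inside a 2-fold change, the widest-reaching running from -0.29 to -0.06 at 24 h.

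The repressors followed different courses. AHRR had 35.7, 39.5 and 38.1 TPM in DMSO and 35.8, 34.9 and 37.6 TPM at 24 h, so it did not separate from DMSO when AHR was highest (log2 fold change -0.06 ± 0.05, 95% interval -0.16 to 0.05). At 6 h its libraries were at 46.8, 47.3 and 50.4 TPM, all above DMSO, with a fitted change of 0.20 ± 0.05 that was not called. It then fell to 17.3, 16.3 and 12.1 TPM at 48 h and 16.3, 15.2 and 16.4 TPM at 72 h. The fitted changes at these times were -1.26 ± 0.06 and -1.33 ± 0.06 (edgeR adjusted p = 2.2e-12 and 7.8e-13). TIPARP had 16.8, 16.4 and 18.6 TPM in DMSO and rose to 43.5, 45.9 and 48.2 TPM at 24 h (1.38 ± 0.05, edgeR adjusted p = 3.6e-13). By 48 h, at 19.8, 22.4 and 16.3 TPM, it overlapped DMSO again, and the fitted change was 0.19 ± 0.05. At 72 h it was at 16.4, 14.8 and 17.5 TPM. TIPARP was thus called at 24 h alone, and AHRR at 48 and 72 h alone.

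CYP1A1 had the largest rise of the members, at 24 h, and stayed above DMSO without overlap afterwards. It was listed at 0.390, 0.610 and 0.530 TPM in DMSO and at 8.58, 7.53 and 6.38 TPM at 24 h, on 251 to 580 reads. The log2 fold change was 3.99 ± 0.17 (edgeR adjusted p = 2.1e-12). At 6 h it overlapped DMSO, at 0.78, 0.72 and 0.50 TPM. At 48 h the libraries were at 1.13, 0.630 and 0.680 TPM (0.77 ± 0.21, edgeR adjusted p = 0.0038), and at 72 h at 1.08, 1.19 and 0.970 TPM (1.04 ± 0.21, edgeR adjusted p = 0.0002). The 72 h value missed the call. It passed with DESeq2, without the count filter, with at least 10 counts in every library, and without UM171 48 h replicate 1 (1.02, adjusted p = 7.3e-05). These were 4 of 25 alternatives. Among the others, limma on log2(TPM + 1) gave 0.46 (adjusted p = 0.0055) and total count scaling 1.12 (edgeR adjusted p = 0.00012). CYP1A1 had 21 to 70 reads in the control libraries outside 24 h, and its standard errors were the widest of the 7 in the time course.

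CYP1B1, the other CYP1 member and far more abundant, peaked at the same time with a smaller change. Its TPM was 35.4, 38.1 and 39.0 in DMSO and 69.1, 62.9 and 80.1 at 24 h, without overlap. The log2 fold change of 0.83 ± 0.08 (edgeR adjusted p = 4.2e-08) was under the 2-fold limit. At 6 h, with 33.1, 37.8 and 36.2 TPM, and at 48 h, with 34.0, 37.6 and 25.1 TPM, it overlapped DMSO. At 72 h its libraries were at 20.6, 21.7 and 22.4 TPM, all below DMSO, with a change of -0.88 ± 0.08 (edgeR adjusted p = 1.8e-08) that was again not called.

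NQO1 showed the deepest loss. Its TPM was 26.3, 30.4 and 31.7 in DMSO and 45.5, 47.5 and 38.8 at 24 h (0.45 ± 0.09, edgeR adjusted p = 0.00036, not called). The 6 h libraries, at 26.5, 33.0 and 35.2 TPM, overlapped DMSO. It stood at 16.9, 19.3 and 12.1 TPM at 48 h (-0.96 ± 0.10), just short of 2-fold, and without UM171 48 h replicate 2 it was called (-1.01, adjusted p = 6.7e-07). By 72 h it had fallen to 5.08, 4.52 and 4.47 TPM, a change of -2.73 ± 0.12 (edgeR adjusted p = 1.1e-12). All libraries at 48 and 72 h lay below all DMSO libraries.

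Between 24 and 72 h of UM171 5 members fell, against 3.04% of all genes called lower and 8.89% called higher. The log2 changes were -3.18 ± 0.12 for NQO1, -2.94 ± 0.15 for CYP1A1, -1.71 ± 0.08 for CYP1B1, -1.55 ± 0.05 for TIPARP and -1.27 ± 0.06 for AHRR, with edgeR adjusted p of 2.6e-11 or less. For AHR the value was -0.70 ± 0.06, which was not called. This comparison shares its UM171 24 h and 72 h libraries with the comparisons against DMSO.

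**Figure D2:**
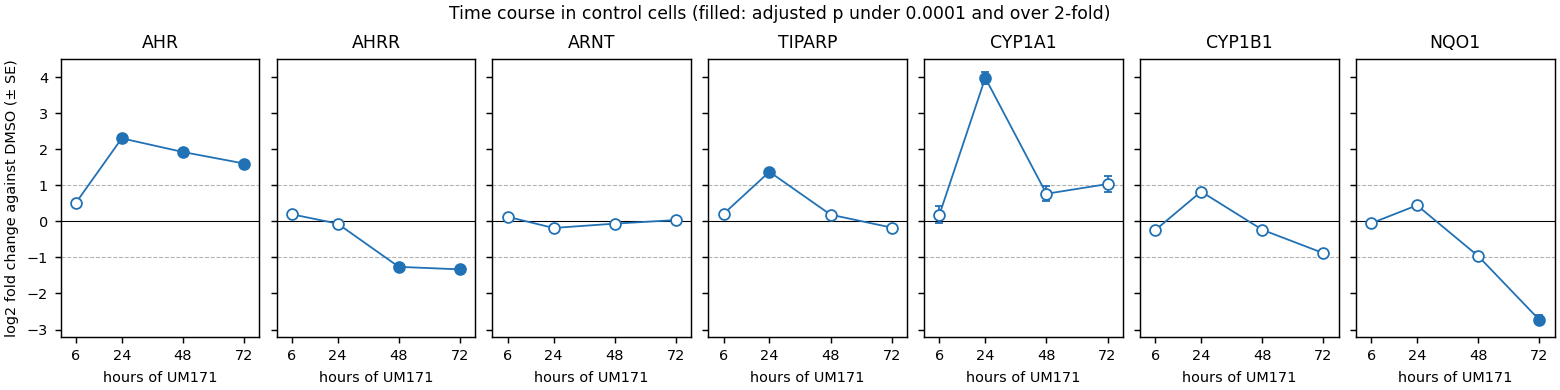
Log2 fold change of each member against DMSO (± SE) over hours of UM171 in control cells, 3 libraries a group, with filled points for called changes and dashed lines at 2-fold. AHR stayed above the 2-fold line from 24 h, CYP1A1 and TIPARP crossed it as calls at 24 h alone, and AHRR and NQO1 ended below it.

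In sgEPCR cells 24 h of UM171 raised 4 members, TIPARP, CYP1A1, CYP1B1 and NQO1, against 6.99% of 15901 genes called higher and 3.33% called lower. The median change of the members was 1.39 and that of all genes -0.01. CYP1B1 had the largest response. Its TPM was 9.06, 19.1 and 20.5 in sgEPCR DMSO and 325, 191 and 328 in sgEPCR UM171, a log2 fold change of 3.88 ± 0.10 (edgeR adjusted p = 2.8e-09). Without the 2 libraries of high mitochondrial share it was 3.84. TIPARP went from 6.83, 15.6 and 17 TPM to 82.8, 46.0 and 78.7 TPM (2.22 ± 0.08, edgeR adjusted p = 1.6e-08), and was at 2.13 without those libraries. CYP1A1 went from 0.870, 0.750 and 0.880 TPM to 8.95, 5.57 and 9.67 TPM (3.17 ± 0.21, edgeR adjusted p = 6.5e-07), and was at 3.48 without them. In all 3 of these genes the sgEPCR groups did not overlap.

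NQO1 overlapped in TPM between the sgEPCR groups, at 2.46, 8.0 and 8.06 in DMSO and 22.4, 6.07 and 23.9 under UM171. The low values, 2.46 and 6.07 TPM, belong to the 2 libraries with the high mitochondrial share. Its fitted change was 1.39 ± 0.16 (edgeR adjusted p = 2.9e-05) and 1.44 without them (adjusted p = 1.3e-08). That call was lost on leaving out any of 9 single libraries: the 3 control DMSO libraries, UM171 24 h replicate 1, the 3 sgEPCR DMSO libraries, and sgEPCR UM171 replicates 1 and 3. The value then ran from 1.29 to 1.45 with edgeR adjusted p of 0.0001 to 0.00023. With limma the call was lost by more, on log2(TPM + 1) (1.29, adjusted p = 0.091) and on log2(TPM + 0.1) (1.43, adjusted p = 0.095). Total count scaling lost it too (1.57, edgeR adjusted p = 0.0019). AHRR also overlapped, at 6.59, 22.1 and 21.7 TPM in DMSO and 53.4, 16.6 and 55.4 TPM under UM171 (0.98 ± 0.18, edgeR adjusted p = 0.0008). It was called without sgEPCR UM171 replicate 2 (1.16, adjusted p = 2.4e-05) and without both high mitochondrial libraries (1.03, adjusted p = 1.1e-10). Over all genes 1112 were called higher and 530 lower with all libraries. The counts were 1191 and 639 without that replicate, and 1632 and 935 without both libraries. AHR had 9.24, 13 and 15.6 TPM in DMSO and 32.2, 23.3 and 29.8 TPM under UM171, with no overlap but a fitted change of 0.96 ± 0.24 that was not called, and 0.97 without the 2 libraries, again not called. ARNT, at 22.9, 38.1 and 41.4 TPM in DMSO and 41.8, 26.8 and 46.8 TPM under UM171, overlapped, with a fitted difference of 0.08 ± 0.11, and 0.09 without the 2 libraries.

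The response itself was then compared between genotypes, as the sgEPCR change minus the control change, in 1 fit of 12 libraries. The comparisons between and within genotypes share these libraries. CYP1B1 was the 1 member called, against 3.60% of genes called higher and 4.17% called lower. Its response was larger in sgEPCR cells by 3.05 ± 0.13 on the log2 scale (edgeR adjusted p = 1.6e-07), and by 3.02 without the 2 libraries. The call was lost with limma on log2(TPM + 1) (3.18, adjusted p = 0.0015) and on log2(TPM + 0.1) (3.24, adjusted p = 0.0019), and with a replicate block (3.05, edgeR adjusted p = 0.00051). Of all genes the block called 0. The limma fits called 15 higher and 1 lower, and 8 higher and 1 lower, of 16185 genes. The TPM ratio of UM171 over DMSO was 17.3 in sgEPCR cells and 1.89 in control cells. AHR differed in the opposite direction by -1.36 ± 0.34 (edgeR adjusted p = 0.0075), which was not called with all libraries and was called without the 2 libraries (-1.34, adjusted p = 5.9e-09). AHRR differed by 1.03 ± 0.25 (edgeR adjusted p = 0.0061) and was likewise called without them (1.09, adjusted p = 1e-09). Calls over all genes also grew without the 2 libraries, to 1518 higher and 1602 lower of 16360. With all libraries they were 573 and 663 of 15901. TIPARP at 0.83 ± 0.11, NQO1 at 0.94 ± 0.22 and CYP1A1 at -0.81 ± 0.30 were not called, with 95% intervals of 0.61 to 1.05, 0.52 to 1.36 and -1.40 to -0.23, and values of 0.76, 0.99 and -0.51 without the 2 libraries. For ARNT the difference was 0.25 ± 0.15, and 0.27 without them.

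**Figure D3:**
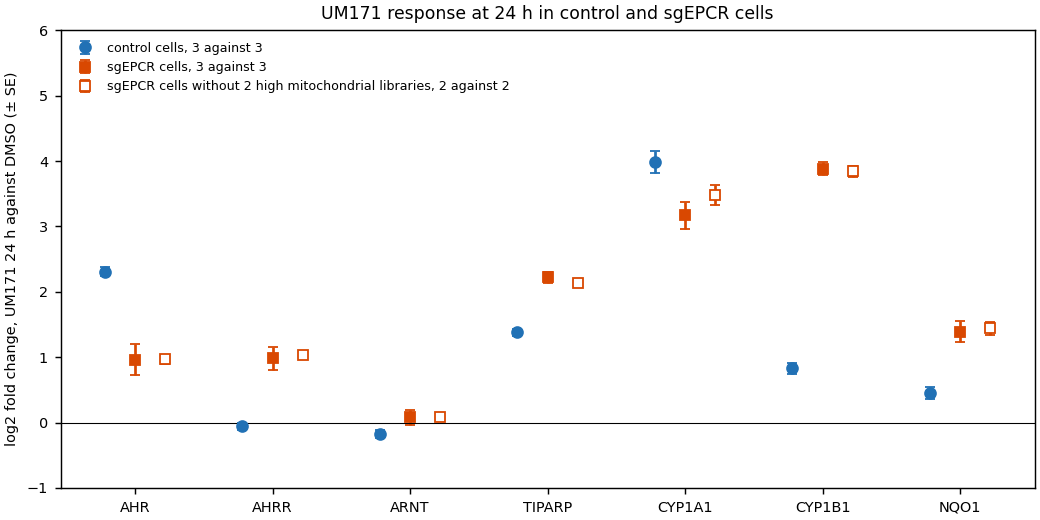
Log2 fold change of each member after 24 h of UM171 against DMSO (± SE), from separate fits for control and sgEPCR cells, with open squares leaving out the 2 high mitochondrial libraries. CYP1B1 stood at 0.83 in control and 3.88 in sgEPCR cells, and AHR at 2.31 and 0.96.

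Between genotypes under DMSO NQO1 fell, the 1 member called, where 1.43% of genes were called higher and 1.41% lower. Its change was -1.95 ± 0.16 (edgeR adjusted p = 9.8e-06), from 29.5 ± 2.83 TPM in control to 6.17 ± 3.22 TPM in sgEPCR cells, without overlap, and -1.86 without the 2 high mitochondrial libraries. The call was lost without DMSO replicate 2, DMSO replicate 3 or sgEPCR DMSO replicate 2, at -1.99 to -1.93 with edgeR adjusted p of 0.0001 to 0.00011. With limma it was lost on log2(TPM + 1) (-2.21, adjusted p = 0.02) and on log2(TPM + 0.1) (-2.41, adjusted p = 0.023). Total count scaling lost it too (-2.18, edgeR adjusted p = 0.00067). CYP1B1 was lower in every sgEPCR DMSO library than in every control DMSO library, yet its change of -0.82 ± 0.09 (edgeR adjusted p = 9e-05), -0.84 without the 2 high mitochondrial libraries, was under 2-fold. AHR had no stable direction there, at 0.35 ± 0.24 with all libraries, 0.04 without the 2 high mitochondrial ones, and -0.24 on log2(TPM + 1), where the median of all genes was -0.34. Between genotypes under UM171 CYP1B1 rose, against 2.67% of genes called higher and 1.79% lower, with a change of 2.23 ± 0.10 (edgeR adjusted p = 1.6e-07) and 2.17 without the 2 libraries. For AHR the value was -1.0 ± 0.24 there (edgeR adjusted p = 0.0063), from 73.7 to 28.4 TPM without overlap, and was called without the 2 libraries (-1.30, adjusted p = 2e-10). Over all genes 996 were called higher and 619 lower without the 2 libraries, against 425 and 284 with all. CYP1A1 reached the same range in both genotypes under UM171, 7.50 ± 1.10 and 8.06 ± 2.19 TPM. The difference was 0.05 with a 95% interval of -0.30 to 0.41, and 0.17 without the 2 libraries.

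Because a ratio of 2 genes within a library does not depend on that library's scaling, member ratios were also read library by library, as a description chosen after the values were seen. AHR over ARNT was 0.312, 0.336 and 0.375 in DMSO and 1.86, 1.89 and 1.49 at 24 h of UM171. In sgEPCR cells it was 0.404, 0.341 and 0.376 in DMSO and 0.771, 0.871 and 0.638 under UM171. The sgEPCR UM171 libraries thus lay between the DMSO and the 24 h libraries of control cells, the 2 high mitochondrial libraries included. AHRR over AHR was 2.35, 2.94 and 2.44 in DMSO and 0.483, 0.439 and 0.559 at 24 h, so the repressor transcript passed from above to below the receptor transcript. In sgEPCR cells that ratio was 0.713, 1.7 and 1.39 in DMSO and 1.66, 0.713 and 1.86 under UM171, so the groups overlapped. The values of 0.713 belong to the 2 high mitochondrial libraries. CYP1B1 over CYP1A1 was 90.8, 62.4 and 73.6 in DMSO and 8.05, 8.36 and 12.6 at 24 h in control cells. In sgEPCR cells it was 10.4, 25.4 and 23.3 in DMSO and 36.3, 34.2 and 33.9 under UM171.

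**Figure D4:**
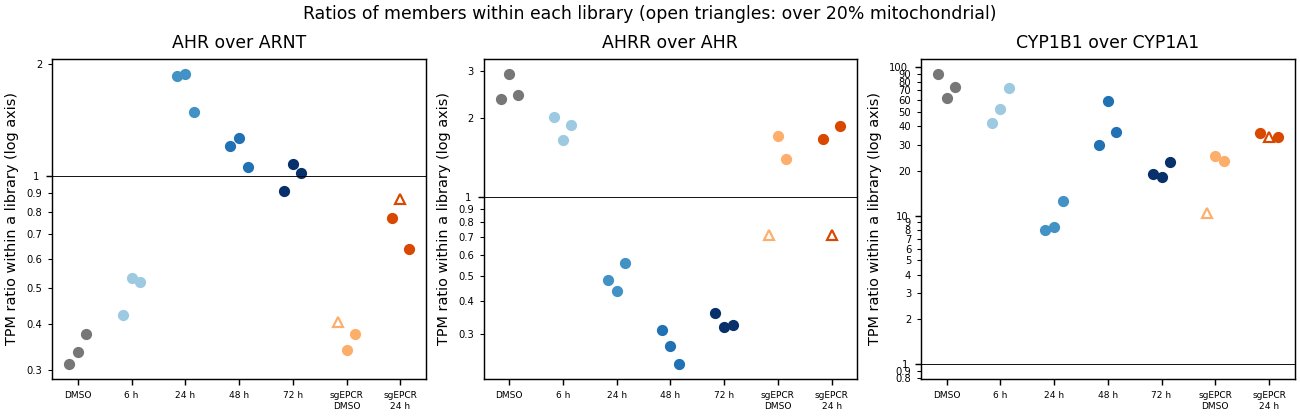
TPM ratio of 2 members within each library (log axis) by group, with open triangles for the 2 high mitochondrial libraries and the line at equal levels. AHR over ARNT exceeded 1 in all 3 libraries at 24 h in control cells and stayed below 1 in all 3 sgEPCR UM171 libraries.

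Genes that overlap CYP1B1 and TIPARP were checked for shared reads. CYP1B1-AS1, antisense to CYP1B1, had 5 to 63 reads per library against 1315 to 45371 for CYP1B1, and TIPARP-AS1 had 16 to 88 against 704 to 7519 for TIPARP. CYP1B1-AS1 fell at 72 h (-1.70 ± 0.29, edgeR adjusted p = 4.8e-05), and TIPARP-AS1 rose from 24 to 72 h (1.5 ± 0.21, edgeR adjusted p = 4.9e-06), while TIPARP fell over that interval. EXOC3, a neighbor of AHRR, was not called in any comparison. The AHRR loci PDCD6-AHRR and AHRR-AS1 matched no gene identifier, so reads shared with them were not checked. RSEM's posterior standard deviation of the count was 0 in all libraries for 5 of the 7 members and reached 4.46 reads at most. The library kit is strand-specific, and the strand setting of the counting is not given in the sources used here. In GRCh38 AHR spans chr7:16916359-17346152, AHRR chr5:321714-438291, ARNT chr1:150809713-150876708, TIPARP chr3:156673235-156706770, CYP1A1 chr15:74719542-74725536, CYP1B1 chr2:38066973-38109902 and NQO1 chr16:69706996-69726668.

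Other genes of the pathway were read from lists, each described by its counts and its median. Of 17 chaperones and coregulators of AHR, 2 were called in the time course. At 72 h 1 of the 17 was called higher and 1 lower, against 15% and 5.80% of all genes. HSP90AA1, a chaperone of the unliganded receptor, fell by 1.44 on the log2 scale at 72 h (± 0.05, edgeR adjusted p = 4.3e-14), and RELB, an NF-kB subunit reported to bind AHR, rose by 1.93 ± 0.13 (edgeR adjusted p = 3.1e-10). At 72 h the median of this list was -0.13, against 0.02 for all genes. In sgEPCR cells NCOA3, a coactivator, rose by 1.39 ± 0.14 (edgeR adjusted p = 1.1e-05), the 1 of the 17 called, and by 1.32 without the 2 high mitochondrial libraries, where 2 of the 17 were called. Of all genes 6.99% were called higher and 3.33% lower there. Without the 2 libraries 1632 were called higher and 935 lower of 16360. Of 13 other bHLH-PAS factors, the family of AHR and ARNT, 6 were tested and 2 called. Both were called higher at 48 h, where 11.7% of all genes were. HIF1A, the hypoxia factor that also pairs with ARNT, rose at 24 h from 25.0 to 51.6 TPM (1.05 ± 0.06, edgeR adjusted p = 5.6e-11). EPAS1, another hypoxia factor, rose by 2.27 ± 0.25 at 72 h (edgeR adjusted p = 2.9e-07) and by 3.96 ± 0.35 in sgEPCR cells (edgeR adjusted p = 5.3e-06, and 3.61 without the 2 libraries), with every group mean under 1 TPM.

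Of 18 other reported AHR targets, 8 were tested in the time course and 3 called, all higher in the comparisons that called them. All 3 were called higher at 72 h, where 15% of all genes were. SERPINB2, a protease inhibitor, rose from 6.44 TPM to 40.1 TPM at 24 h and 117 TPM at 48 h (2.65 ± 0.06 and 4.27 ± 0.06, edgeR adjusted p = 2.4e-15 and 1.8e-17). CD36, a lipid scavenger receptor, rose from 4.23 to 37.1 TPM at 24 h (3.29 ± 0.11, edgeR adjusted p = 6.1e-14). STC2, a secreted glycoprotein, rose at 72 h (1.65 ± 0.04, edgeR adjusted p = 3.1e-15). Unlike CYP1A1 and TIPARP, SERPINB2 was called higher again from 24 to 72 h (1.32 ± 0.05). The median of the 8 was 0.61 at 24 h and 1.27 at 72 h, against -0.01 and 0.02 for all genes. In sgEPCR cells SERPINB2 and CD36 rose under UM171 (2.35 ± 0.15 and 1.97 ± 0.17), and STC2 fell by 1.24 ± 0.07, with edgeR adjusted p of 4.6e-06 or less. Without the 2 high mitochondrial libraries these values were 2.48, 1.94 and -1.20. CYP1A2, the neighbor of CYP1A1, was listed at 0 TPM in every group mean.

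Of 20 genes of the kynurenine pathway and AHR ligand formation, 15 were tested in the time course, and 5 were called higher and 1 lower at 24 h, against 9.03% and 4.70% of all genes, with a median of 0.32 against -0.01. KYNU, the kynureninase, rose by 4.16 ± 0.26 at 24 h (edgeR adjusted p = 3e-10) at 2.08 TPM, the cyclooxygenase PTGS2 by 4.41 ± 0.17 at 72 h at 25.4 TPM, and the monoamine oxidase MAOA by 3.40 ± 0.17 at 72 h at 2.58 TPM, with edgeR adjusted p of 7.6e-12 or less for the latter 2. IDO1, an enzyme that opens the pathway, was listed at 0 TPM in every group mean. TDO2 of the same list was called higher from 24 to 72 h. Over that interval 5 of the 15 were called higher and 2 lower, against 8.89% and 3.04% of all genes. In sgEPCR cells 4 of the 15 rose, against 6.99% of all genes, PTGS2 by the most (5.09 ± 0.19, edgeR adjusted p = 1.4e-08, and 5.03 without the 2 libraries). The response of ALOX5, a lipoxygenase, was larger in sgEPCR cells by 4.29 ± 0.24 (edgeR adjusted p = 6.2e-07), the same value as without the 2 libraries, its mean in DMSO being 5.4 TPM in control and 0.303 TPM in sgEPCR cells.

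NQO1 is shared with the NRF2 system, whose list held 25 other genes, all tested. At 72 h, when NQO1 was lowest, 5 of them were called higher and 3 lower, against 15% and 5.80% of all genes, with a median of -0.41 against 0.02. MAFF, a small MAF partner, rose by 4.16 ± 0.16 at 72 h (edgeR adjusted p = 2.9e-13). The 3 that fell, named after their values were seen, were HMOX1, GCLM of glutathione synthesis (-1.77 ± 0.09) and KEAP1, the NRF2 inhibitor (-1.23 ± 0.06). HMOX1, heme oxygenase, moved with a different course from NQO1. It averaged 49.2 TPM in DMSO and 3.19 TPM at 24 h, a fall by 3.98 ± 0.11 on the log2 scale (edgeR adjusted p = 8.7e-15), the time at which NQO1 was highest. In sgEPCR cells HMOX1 averaged 0.807 TPM in DMSO and 24.0 TPM under UM171, so that its response was larger by 8.54 ± 0.62 (edgeR adjusted p = 2.5e-06) and by 8.66 without the 2 libraries. AKR1C1, an aldo-keto reductase, had the same direction of difference (6.31 ± 0.66, edgeR adjusted p = 2.8e-05) at up to 4.80 TPM, and SLC7A11, the cystine transporter, rose by 2.93 ± 0.13 in sgEPCR cells (edgeR adjusted p = 4.5e-08). Without the 2 libraries these values were 6.21 and 2.83. In that fit 6 of the 25 rose with UM171 and the median was 0.18, against 6.99% of all genes called higher and a median of -0.01. Of 12 genes of P450 electron transfer and heme synthesis, ALAS1, which opens heme synthesis, was the 1 called in the time course, rising from 24 to 72 h (1.17 ± 0.04, edgeR adjusted p = 2.4e-13). Over that interval 8.89% of all genes were called higher and 3.04% lower. UROS and CYB5B had smaller responses in sgEPCR cells by -1.17 ± 0.13 and -1.05 ± 0.09 (edgeR adjusted p = 3.4e-05 and 7.1e-06), and by -1.15 and -1.04 without the 2 libraries.

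The genes whose pattern was most like each member were found by Pearson r over the 7 group means of log2 CPM, among 10743 genes. These are descriptions over 7 points that share libraries. AHR was most like OAZ2 (r = 0.992), MZT1 (0.988) and MLLT11 (0.975). TIPARP was most like MALT1 (0.966) and FBXO30 (0.965), followed by CYP1B1 (0.957). CYP1A1 was most like SMYD2 (0.961) and RNF14 (0.935), followed by TIPARP (0.920). CYP1B1 was most like ANXA5 (0.975), VRK2 (0.974) and RC3H2 (0.970), and NQO1 was most like VOPP1 (0.985), SRXN1 (0.984), an NRF2 list gene, and KRT10 (0.950). AHRR was most like PGGT1B (0.952), IBA57 (0.949) and UBLCP1 (0.948), and ARNT was most like KRBOX4 (0.975), ZMAT1 (0.972) and TMEM198B (0.964). By rank the likeness was weaker for some pairs. Spearman rho was 0.50 for CYP1A1 and TIPARP, 0.68 for CYP1B1 and RC3H2 and 0.79 for TIPARP and CYP1B1. The other pairs named here had 0.82 or more. Between AHR and the other members r was 0.60 for CYP1A1, 0.39 for TIPARP, 0.22 for CYP1B1, 0.01 for NQO1, -0.32 for AHRR and -0.54 for ARNT.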

How the data were processed

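RNA of 21 OCI-AML5 samples was sequenced from poly(A), stranded libraries. The submitters' processing notes list CASAVA 1.8.2, Trimmomatic 0.35, STAR 2.5.1b and RSEM 1.2.28 on GRCh38. The study's text describes a kallisto and sleuth pipeline with its own annotation for sorted cord blood cells, and the annotation version and strand setting of these RSEM files are not given in the sources used here. The authors deposited RSEM expected counts and TPM per gene (58219 entries, of which 45 PAR copies were summed); posterior standard deviations and transcript lengths were read for the members only.

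Expected counts were rounded and tested with edgeR 4.0.16 (R 4.3.3): filterByExpr, TMM scaling, quasi-likelihood test and Benjamini-Hochberg adjustment over all genes, with 15 libraries in the time course fit and 12 in the sgEPCR fit. Errors are SE from the F statistic. TPM gave levels. The script was tested on simulated data. Alternatives used DESeq2 1.42.0, limma 3.58.1 on log2(TPM + 1) and log2(TPM + 0.1), other scalings and filters, all 21 libraries in 1 fit, a replicate block, no mitochondrial genes, and leaving out libraries. Named genes are all members, overlapping loci, up to 3 called genes of each list with the largest change in each fit, and the 3 genes most like each member. The members and lists were chosen with earlier results of these data known.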

Additional observations from a re-analysis of the deposited data

Results flagged for a closer look

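The UM171 response at 24 h differed between sgEPCR and control cells for 6 of the 7 members at an edgeR adjusted p under 0.05 in the test of the difference itself, and for 1 of them past the stricter call. At that looser threshold 7158 of 15901 genes passed, and limma passed 2 of the 7 members. The difference, sgEPCR minus control on the log2 scale, was 3.05 for CYP1B1, which passed the call. It was 1.03 for AHRR, 0.94 for NQO1 and 0.83 for TIPARP, all larger responses in sgEPCR cells. It was -1.36 for AHR and -0.81 for CYP1A1, both smaller responses in sgEPCR cells. The share of mitochondrial reads was 35.9% in 1 sgEPCR DMSO library and 32.2% in 1 sgEPCR UM171 library. Without those 2 libraries the differences were 3.02, 1.09, 0.99, 0.76, -1.34 and -0.51 in the same order, and CYP1A1 no longer passed (edgeR adjusted p = 0.065). A larger response is not a higher level. Under UM171 NQO1 averaged 17.5 TPM in sgEPCR and 43.9 TPM in control cells, without overlap. Its fitted difference there was -1.01 ± 0.15, not called. AHRR differed by 0.22 ± 0.17 under UM171 and -0.81 ± 0.18 under DMSO (0.41 and -0.68 without the 2 libraries). CYP1A1 differed by 0.87 ± 0.23 under DMSO (0.68 without them), and none of these was called. The vehicle time also differed, 72 h in control and 24 h in sgEPCR cells, and cannot be told apart from genotype.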

How the results depend on the processing

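Among the alternative values of a member's change, leaving out single libraries aside, 614 kept their direction and their side of the call, 16 lost it, 10 gained it and 18 changed sign, none of the last past the call. Without the fold limit, at an adjusted p under 0.05, the members called were 4, 6, 6 and 6 at 6, 24, 48 and 72 h, 4 between genotypes under DMSO, 4 under UM171 and 6 for the difference of responses. Of all genes 10301, 11560, 11946 and 12533 of 16575 passed at those times, and 5358, 6844 and 7158 of 15901 in the other comparisons. In sgEPCR cells limma with either pseudocount and the replicate block called 2 members each, against 4. Between genotypes under DMSO limma, total count scaling and the block called 0, against 1, and leaving out single libraries gave 0 to 1. Under UM171 limma called 0, and total count scaling, all 21 libraries in 1 fit and leaving out the 2 high mitochondrial libraries called 2, against 1. For the difference limma and the block called 0 and leaving out those 2 libraries 3, against 1. The limma fits and the block called fewer genes of any kind than the main fit. Under UM171 the main fit called 425 genes higher and 284 lower, and total count scaling 180 and 116. All 21 libraries in 1 fit called 808 and 556, and leaving out the 2 libraries 996 and 619. For the difference the block called 0 of 15901 genes, and limma on log2(TPM + 1) called 15 higher and 1 lower of 16185. Between genotypes under DMSO that limma fit called 0 genes, and the block 80 higher and 77 lower. Under UM171 it called 34 and 7, and in sgEPCR cells 228 and 11, where the block called 102 and 12. The causes were not tested.

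Whether replicate numbers pair the libraries could not be decided. Deviations of same-numbered sgEPCR libraries from their group means correlated at -0.56, -0.56 and 0.41 over 16786 genes. The 2 high mitochondrial libraries, DMSO replicate 1 and UM171 replicate 2, correlated at 0.66. Deviations from a mean of 3 are tied to each other, so these 2 libraries shape the other values. With the replicate block CYP1A1 (3.15) and NQO1 (1.38) in sgEPCR cells, NQO1 between genotypes under DMSO (-1.95) and the CYP1B1 difference (3.05) kept their size and missed the call, at edgeR adjusted p of 0.0002, 0.0018, 0.00016 and 0.00051.

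Every value that changed sign was uncalled. Depth limits CYP1A1 most, with as few as 21 reads in a library. NQO1 at 6 h was 0.09 with either limma fit, 0.05 with upper quartile scaling, 0.14 with total count scaling, 0.004 with at least 10 counts and -0.12 to 0.02 on leaving out single libraries, highest without UM171 6 h replicate 1. ARNT at 48 h was 0.13 and 0.14 with limma. Between genotypes under DMSO limma gave -0.24 and -0.26 for AHR and -0.46 and -0.49 for TIPARP, and TIPARP was -0.06 with upper quartile scaling, -0.25 with total count, -0.02 with at least 10 counts, -0.002 without the 2 libraries and -0.01 to 0.04 on leaving out single libraries, lowest without DMSO replicate 2. ARNT was 0.02 there without sgEPCR DMSO replicate 2, and -0.03 to 0.19 for the sgEPCR response on leaving out single libraries, lowest without sgEPCR UM171 replicate 2. Between genotypes under UM171 ARNT was -0.17 and -0.18 with limma, and CYP1A1 was -0.03 with total count, -0.02 without UM171 24 h replicate 3 and -0.05 to 0.17 on leaving out single libraries, lowest without sgEPCR UM171 replicate 3. Over all genes, calls in sgEPCR cells were 1112 higher and 530 lower, and 978 and 146 with total count scaling. Between genotypes under DMSO they were 228 and 224 against 64 and 143, and for the difference 573 and 663 against 269 and 155.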
